A study of Homo sapiens with 14 samples.

Results

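LRRC8A, LRRC8B, LRRC8C, LRRC8D and LRRC8E are the subunits of the volume-regulated anion channel, and they were found by Ensembl ID as 5 of the 62757 genes counted in RNA-seq libraries of 2 human ovarian cancer cell lines, OVCAR3 and A2780. The 14 libraries form 7 groups of 2. The groups labelled OVCAR3-DDP-sh1 and OVCAR3-DDP-sh2 are cisplatin-resistant OVCAR3 cells with a short hairpin RNA against ADAR1, the RNA-editing enzyme encoded by ADAR, and OVCAR3-DDP-shNC is the same line with a hairpin that served here as control. OVCAR3-DDP and A2780-DDP are labelled as the resistant cells without a hairpin, DDP being an abbreviation of cisplatin, and OVCAR3-WT and A2780-WT are the parental cells. The labels give no cisplatin dose, no exposure time, no clone number and no word on separate cultures. The p-values therefore reflect the spread between libraries alone, which may be technical. That spread was unequal. Between the 2 libraries of a group, chi-square per gene was 31.5 in OVCAR3-WT, 21.1 in sh1 and 18 in A2780-DDP. It was 3.88 to 5.01 in the other groups. The tests share 1 spread per gene over the groups of a fit.

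The channel opens when a cell swells and lets chloride and small organic molecules such as taurine leave, which brings the volume back. It is a hexamer that needs LRRC8A together with at least 1 of the other subunits, and the choice of partner sets what passes. LRRC8A and LRRC8D together are known to carry cisplatin into cells, LRRC8D widens the range of organic osmolytes, and channels with LRRC8A and LRRC8C or LRRC8E pass the cyclic dinucleotide that activates STING. These data are RNA levels and hold no measure of channel current or platinum uptake.

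Levels are in CPM, counts scaled to the same total of counts assigned to genes. That total ran from 20428538 to 49115255 per library and from 20428538 to 23746370 in the hairpin libraries. ADAR stood at 289 and 254 CPM with sh1 and 116 and 114 CPM with sh2, against 447 and 399 CPM in shNC. The libraries labelled OVCAR3-DDP stood apart from all other libraries with an OVCAR3 label. Their summed level of 12 ovarian carcinoma and epithelial markers was 539 to 575 CPM, with 3 of the 12 at 10 CPM or more and KRT7 and CD44 averaging 0.246 and 0 CPM. The same sum was 5711 to 6046 CPM in shNC and 4485 to 4905 CPM in OVCAR3-WT, with 9 and 8 of the 12 at 10 CPM or more. Summed over 8 neural markers the order turned, with 245 to 248 CPM in libraries labelled OVCAR3-DDP, against 12.5 to 14.4 CPM in shNC and 6.39 to 6.47 CPM in OVCAR3-WT. Of the 8, 3 were at 10 CPM or more in libraries labelled OVCAR3-DDP and 0 in shNC and in OVCAR3-WT. The neural markers did not move as one: of 6 tested against OVCAR3-WT, 3 were higher and 3 lower, where 68.5% of all genes tested passed. In A2780 the ovarian and epithelial sum was 278 to 306 CPM in A2780-DDP and 198 to 205 CPM in A2780-WT, and KRT7 was at 0 in both A2780-WT libraries. The neural sum in A2780 was 877 to 1003 CPM in A2780-DDP and 271 to 272 CPM in A2780-WT. With the hairpins the neural sum was 19.6 to 20.1 CPM for sh1 and 16.9 to 17.9 CPM for sh2, above shNC. In both, 0 of the 8 were at 10 CPM or more. The ovarian and epithelial sum was 4713 to 4949 CPM for sh1 and 4997 to 5008 CPM for sh2, below shNC. Of 10 of these markers tested in the mean of sh1 and sh2 over shNC, 7 were lower and 0 higher, where 11.9% of all genes tested passed. LRRC8D was above shNC with both hairpins. The part of these differences in the results was not tested, and the subunits' changes in OVCAR3 are therefore also given with shNC in place of OVCAR3-DDP. The identity of the libraries labelled OVCAR3-DDP is uncertain on these markers, and every value given for them is a value of libraries with that label. The hairpin libraries in turn had fewer mitochondrial messenger RNA counts (0.726% to 0.947% of assigned counts) than the libraries without a hairpin (2.31% to 3.51%). They also had more reads aligned to more than 1 place (4.64% to 4.99%, against 2.36% to 3.22%). The part of both differences in the results was not tested.

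LRRC8B, LRRC8C and LRRC8D lie next to each other in the same orientation on chromosome 1 (GRCh38, GENCODE 29, plus strand, all protein coding). LRRC8B spans 89524836 to 89597864, LRRC8C 89633072 to 89769903 and LRRC8D 89821014 to 89936611. LRRC8A lies on chromosome 9 from 128882112 to 128918039 and LRRC8E on chromosome 19 from 7888505 to 7902021, both on the plus strand. The 300-base windows around the starts of LRRC8D and LRRC8B (250 bases before and 50 after, RefSeq, GRCh38.p14, plus strand) are shown because LRRC8D was lower in both resistant lines and because these 2 genes were both higher with each hairpin. Capitals mark CCAAT boxes and GC boxes (GGGCGG), each read on either strand, so that ATTGG and CCGCCC are capitals too. LRRC8D has 2 such windows.
LRRC8D, first start, chr1:89820782-89821081: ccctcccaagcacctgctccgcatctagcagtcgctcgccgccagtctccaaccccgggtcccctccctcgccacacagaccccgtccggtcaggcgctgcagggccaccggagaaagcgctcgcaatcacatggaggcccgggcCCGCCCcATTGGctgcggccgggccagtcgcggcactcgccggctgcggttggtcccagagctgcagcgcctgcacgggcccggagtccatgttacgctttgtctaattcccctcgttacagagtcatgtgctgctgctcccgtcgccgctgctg
LRRC8D, second start, chr1:89821689-89821988: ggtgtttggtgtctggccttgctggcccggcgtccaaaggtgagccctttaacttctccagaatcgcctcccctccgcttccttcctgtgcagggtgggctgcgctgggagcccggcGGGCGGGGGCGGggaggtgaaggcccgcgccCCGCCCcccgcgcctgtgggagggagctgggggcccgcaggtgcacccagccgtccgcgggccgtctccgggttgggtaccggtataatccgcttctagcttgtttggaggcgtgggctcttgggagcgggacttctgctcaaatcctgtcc
LRRC8B, chr1:89524579-89524878: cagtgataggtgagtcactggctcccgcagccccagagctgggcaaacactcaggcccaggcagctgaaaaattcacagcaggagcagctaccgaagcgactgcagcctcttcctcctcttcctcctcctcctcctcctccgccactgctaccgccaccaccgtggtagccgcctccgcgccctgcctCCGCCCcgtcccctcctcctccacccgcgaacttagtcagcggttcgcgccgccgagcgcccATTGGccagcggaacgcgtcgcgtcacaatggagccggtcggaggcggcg

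In the first LRRC8D window a GC box at base -105 and a CCAAT box at base -98 stood side by side, counted from the start. The second LRRC8D window held 3 GC boxes and no CCAAT box, and the LRRC8B window held 1 of each, at -62 and 1. These are common letters: of 35116 windows of this length, 34.6% held CCAAT and 45% held GGGCGG on either strand. TGACGTCA (the cAMP response element), the interferon-stimulated response element core, TGACNNNGC (antioxidant response) and TGATGNAA (amino acid response) were in none of the 3 windows, and 1.85%, 3.57%, 13.3% and 3.62% of all windows held them. TGACGTCA was in 1 window of LRRC8A, at base -28, and the interferon-stimulated response element core was in its other window, at base 5.

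Among the 4 subunits with counts in both lines, LRRC8D had the largest log2 difference between DDP and parental cells, and it was lower in both resistant lines. It stood at 24.3 and 27.3 CPM in libraries labelled OVCAR3-DDP, against 105 and 103 CPM in OVCAR3-WT. In A2780 it stood at 36.9 and 34.6 CPM in A2780-DDP, against 90.5 and 89.8 CPM in A2780-WT. In both lines every resistant library lay below every parental library, and the 2 libraries of each group lay close together. In bulk RNA, fewer cells with the transcript and less of it per cell cannot be told apart. The log2 fold change was −2.19 (SE 0.10; edgeR adjusted p = 4.54e-10) in OVCAR3 and −1.32 (SE 0.10; edgeR adjusted p = 2.70e-07) in A2780.

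The fall in OVCAR3 was also there with the hairpin control. As shNC differs from OVCAR3-WT both in resistance and in carrying a hairpin, these cannot be told apart in any comparison of these groups. LRRC8D had 31.4 and 32.6 CPM in shNC, against 105 and 103 CPM in OVCAR3-WT, a log2 fold change of −1.51 (SE 0.12; edgeR adjusted p = 1.17e-10). With libraries labelled OVCAR3-DDP left out of that fit it was −1.51 again (edgeR adjusted p = 1.34e-09). Of all genes tested, 10.5% were as low or lower than LRRC8D in OVCAR3-DDP, 9% in A2780-DDP and 11.3% in shNC over OVCAR3-WT. Genes called lower in both resistant lines numbered 1722, or 7.48% of the 23031 tested, and 555 of the genes tested (2.41%) were lower by at least 2-fold in both, LRRC8D among them.

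LRRC8A, the obligatory subunit, showed no such fall. It had 87.5 and 86.7 CPM in libraries labelled OVCAR3-DDP, against 76.1 and 86.3 CPM in OVCAR3-WT. In A2780 it had 64.0 and 72.9 CPM in A2780-DDP, against 53.7 and 59.9 CPM in A2780-WT. Resistant libraries lay a little above parental ones on the CPM scale, without overlap, while the fitted log2 fold change in OVCAR3, which also scales for composition, was −0.08 (SE 0.10; edgeR adjusted p = 0.534) and took either sign over the alternatives (−0.14 to 0.05). In A2780 it was 0.28 (SE 0.10; edgeR adjusted p = 0.0555), and this call depended on the setting: 8 of 15 alternatives passed, with edgeR or DESeq2 adjusted p from 0.0301 to 0.287. In shNC LRRC8A had 104 and 96.4 CPM, higher than OVCAR3-WT by log2 0.50 (SE 0.13; edgeR adjusted p = 0.00208).

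LRRC8C, a partner of LRRC8A, was higher in resistant OVCAR3 cells by either measure. It had 17.3 and 19.6 CPM in libraries labelled OVCAR3-DDP and 15.02 and 17.97 CPM in shNC, against 9.34 and 9.83 CPM in OVCAR3-WT. The log2 fold changes over OVCAR3-WT were 0.76 (SE 0.14; edgeR adjusted p = 3.34e-04) and 0.97 (SE 0.17; edgeR adjusted p = 4.22e-05). In A2780 it had 7.51 and 7.99 CPM in A2780-DDP, against 6.96 and 7.43 CPM in A2780-WT, a difference of log2 0.12 that did not pass (SE 0.15; edgeR adjusted p = 0.604). Its mean was 16.5 to 22.6 CPM in the 4 OVCAR3-DDP groups with and without a hairpin.

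LRRC8B gave opposite directions in the 2 resistant OVCAR3 groups. It had 18.0 and 17.1 CPM in libraries labelled OVCAR3-DDP and 4.18 and 4.70 CPM in shNC, against 12.2 and 12.2 CPM in OVCAR3-WT. The 3 groups did not overlap, and the parental level lay between the other 2. The log2 fold change over OVCAR3-WT was 0.35 in libraries labelled OVCAR3-DDP (SE 0.10; edgeR adjusted p = 0.00907; 0.0690 without OVCAR3-DDP replicate 1) and −1.27 in shNC (SE 0.16; edgeR adjusted p = 3.35e-07). In A2780 it had 45.3 and 48.8 CPM in A2780-DDP, against 50.3 and 47.4 CPM in A2780-WT, with overlapping groups (log2 −0.04, SE 0.10; edgeR adjusted p = 0.779). A gene on the other strand, LRRC8C-DT, overlaps LRRC8B and had 1.31 to 11.4 CPM over the 14 libraries, highest in A2780 like LRRC8B. The strand setting of the counting is not given, and whether reads of LRRC8B are among the LRRC8C-DT counts was not tested.

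LRRC8E was present in OVCAR3 and nearly absent from A2780 counts. It had 35.8 and 37.4 CPM in libraries labelled OVCAR3-DDP and 21.6 and 18.3 CPM in shNC, against 17.2 and 16.3 CPM in OVCAR3-WT. The OVCAR3-DDP and shNC libraries all lay above both OVCAR3-WT libraries, by log2 0.95 (SE 0.15; edgeR adjusted p = 8.26e-05) and 0.44 (SE 0.16; edgeR adjusted p = 0.0231) in that order. The second call was lost without OVCAR3-WT replicate 2 (edgeR adjusted p = 0.107) or without shNC replicate 1 (edgeR adjusted p = 0.217). A2780-DDP held 0 and 2 LRRC8E counts and A2780-WT 4 and 2, a ratio of 0.317 with a 95% counting interval of 0.0312 to 1.77, which covers counting error only.

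LRRC8E counts cannot be told apart from those of its antisense neighbour, ENSG00000214248, since the strand setting of the counting is not given in the sources used here. The antisense gene had between 0.859 and 1.08 times the LRRC8E count in each of the 10 OVCAR3 libraries. It had 33.4 and 33.5 CPM in libraries labelled OVCAR3-DDP and 18.6 and 19.1 CPM in shNC, against 16.0 and 16.8 CPM in OVCAR3-WT. With both genes summed, the LRRC8E changes kept their direction and calls in OVCAR3. They were log2 0.90 (edgeR adjusted p = 1.36e-05) for libraries labelled OVCAR3-DDP and 0.42 (edgeR adjusted p = 0.00869) for shNC. As both genes had nearly equal counts in each OVCAR3 library, the sum is no separate check on LRRC8E. In A2780 the summed counts were 3 and 5 in A2780-DDP, against 15 and 8 in A2780-WT. The summed fit did call this lower (log2 −1.56, edgeR adjusted p = 0.023). It is no usable call on so few counts, since the gene entered the test through OVCAR3.

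**Figure D1:**
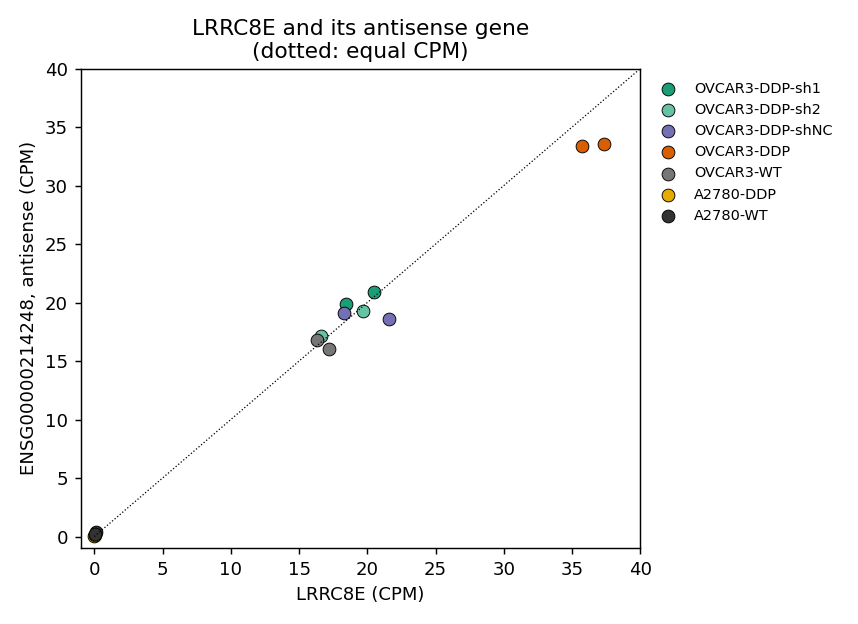
CPM of LRRC8E (x axis) and of the overlapping antisense gene ENSG00000214248 (y axis) in the 14 libraries, 1 point per library and 1 colour per group; the dotted line marks equal values. The 10 OVCAR3 libraries lie along the line, with libraries labelled OVCAR3-DDP highest, and the 4 A2780 libraries lie near 0.

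Counted over the family, 4 of the 5 subunits passed in libraries labelled OVCAR3-DDP against OVCAR3-WT, LRRC8B, LRRC8C and LRRC8E higher and LRRC8D lower, where 68.5% of all genes tested passed (33.4% higher and 35.2% lower). All 5 passed in shNC against OVCAR3-WT, 3 higher and 2 lower, where 51.5% of genes passed (25.1% higher and 26.5% lower). In A2780, leaving aside LRRC8E with its 8 counts, 1 of 4 passed, LRRC8D, where 35.3% of genes passed (18% higher and 17.3% lower). Between the resistant groups, shNC against OVCAR3-DDP, 4 of 5 passed, LRRC8A (log2 0.50) and LRRC8D (0.60) higher and LRRC8B (−1.69) and LRRC8E (−0.58) lower (edgeR adjusted p = 0.00136, 8.74e-05, 8.27e-10 and 0.00206 in that order), where 69.7% of genes passed (32.9% higher and 36.8% lower). Against those backgrounds the counts are no result about the family as a whole. A test of the difference between lines (change in OVCAR3 minus change in A2780) called 3 of the 4 subunits counted in both lines, LRRC8B and LRRC8C higher and LRRC8D lower, where 53.8% of genes passed (26.9% higher and 26.9% lower). For LRRC8D it was −0.87 (SE 0.14; edgeR adjusted p = 1.22e-04), a larger fall in OVCAR3. That difference rested on libraries labelled OVCAR3-DDP: with shNC in their place it was −0.21 (edgeR adjusted p = 0.324).

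**Figure D2:**
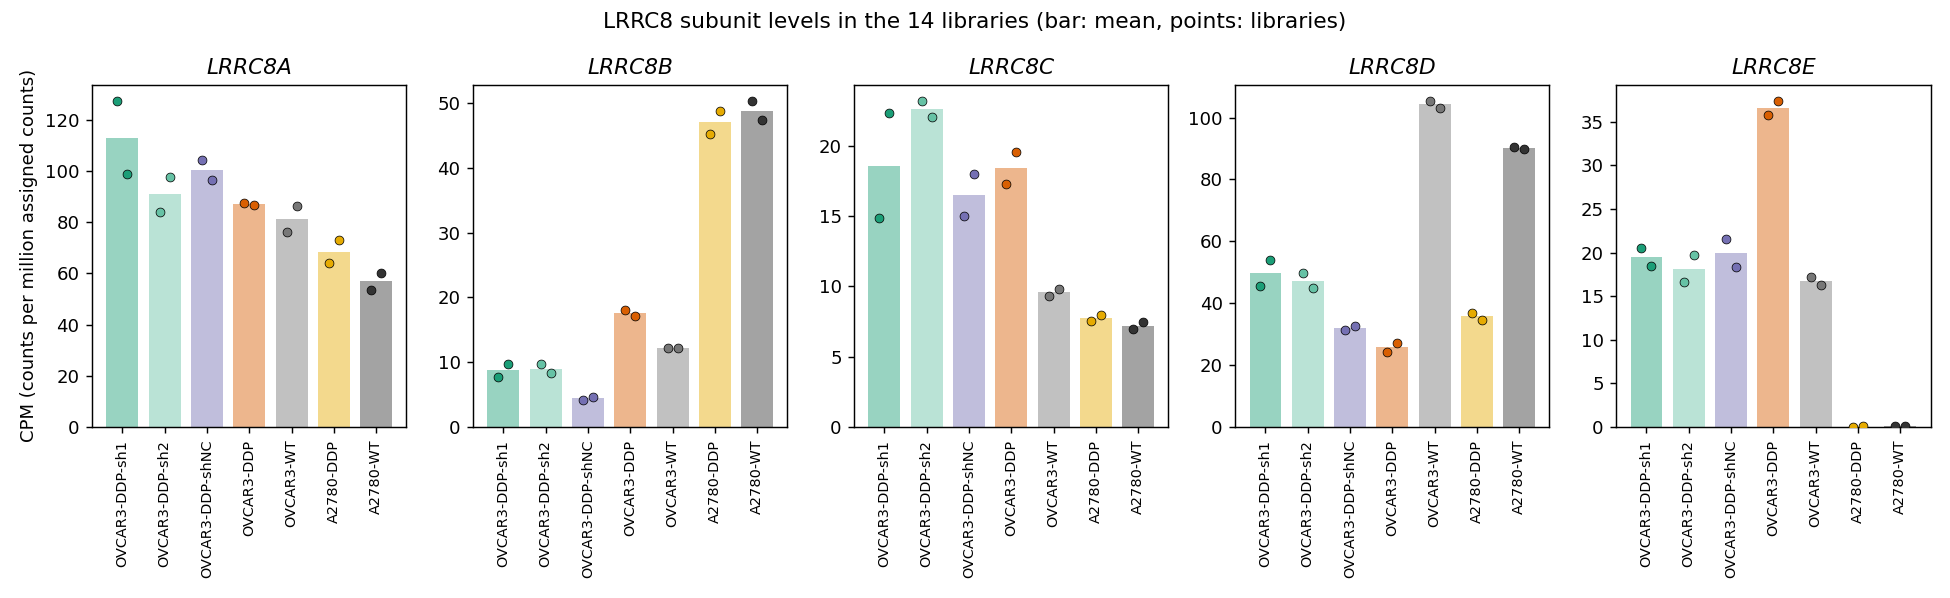
CPM of each subunit (1 panel each, own y axis from 0) in the 7 groups; bars are group means and points the 2 libraries of a group. LRRC8D is lower in every DDP group, with or without a hairpin, than in the parental cells of its line, LRRC8B is highest in A2780, and LRRC8E is near 0 in A2780.

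Knockdown of ADAR1 was accompanied by higher LRRC8B and LRRC8D with both hairpins. LRRC8D had 45.5 and 54.1 CPM with sh1 and 49.6 and 44.8 CPM with sh2, against 31.4 and 32.6 CPM in shNC. All 4 hairpin libraries lay above both controls, and all 4 stayed below OVCAR3-WT. The log2 fold change was 0.56 for sh1 (SE 0.13; edgeR adjusted p = 0.0237) and 0.45 for sh2 (SE 0.13; edgeR adjusted p = 0.0297), and 0.51 for the mean of both (SE 0.12; edgeR adjusted p = 0.0109). The LRRC8D calls were not robust to losing a library. For the mean, edgeR adjusted p was 0.199 and 0.138 without shNC replicate 1 or 2 and 0.0688 without sh2 replicate 1, at log2 0.46 to 0.55. For sh1 it was 0.274 and 0.204 without shNC replicate 1 or 2, and for sh2 0.266, 0.172, 0.350 and 0.0805 without shNC replicate 1 or 2 and sh2 replicate 1 or 2. The sign was positive in all of these.

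LRRC8B had 7.75 and 9.79 CPM with sh1 and 9.69 and 8.29 CPM with sh2, against 4.18 and 4.70 CPM in shNC. All 4 hairpin libraries lay above both shNC libraries and below the 12.2 and 12.2 CPM of OVCAR3-WT. The log2 fold change was 0.90 for sh1 (SE 0.20; edgeR adjusted p = 0.0163), 0.91 for sh2 (SE 0.20; edgeR adjusted p = 0.00641) and 0.91 for the mean (SE 0.18; edgeR adjusted p = 0.00392). Without shNC replicate 1 or 2 the sh1 value had edgeR adjusted p = 0.175 and 0.0899. Without shNC replicate 1 or sh2 replicate 1 the sh2 value had edgeR adjusted p = 0.0852 and 0.106, and without shNC replicate 1 the mean had 0.0891.

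LRRC8A, LRRC8C and LRRC8E did not pass with either hairpin. LRRC8A had 127 and 98.7 CPM with sh1 and 84.0 and 97.8 CPM with sh2, against 104 and 96.4 CPM in shNC, with overlapping groups. LRRC8C had 14.8 and 22.3 CPM with sh1 and 23.2 and 22.0 CPM with sh2, against 15.02 and 17.97 CPM in shNC, a difference of log2 0.09 for sh1 (edgeR adjusted p = 0.832) and 0.35 for sh2 (edgeR adjusted p = 0.200). LRRC8E had 20.5 and 18.5 CPM with sh1 and 16.6 and 19.7 CPM with sh2, against 21.6 and 18.3 CPM in shNC. The count was thus 2 of 5 with sh1, where 3.81% of genes passed (1.96% higher and 1.85% lower). It was 2 of 5 with sh2, where 14.3% passed (7.23% higher and 7.04% lower), and 2 of 5 for the mean, where 11.9% passed (5.94% higher and 5.98% lower).

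Although ADAR was lower with sh2 than with sh1, none of the 5 subunits differed between sh2 and sh1 by edgeR's test, where 1.92% of genes passed (0.667% higher and 1.25% lower); 0 of 5 also passed by DESeq2 and by limma-voom. At an unadjusted p under 0.05, 1 of 5 passed (LRRC8A). LRRC8D differed by log2 −0.11 (SE 0.13; edgeR adjusted p = 0.749) and LRRC8B by 0.01 (SE 0.19; edgeR adjusted p = 0.990). The largest difference was −0.34 for LRRC8A (SE 0.13; edgeR adjusted p = 0.187), which passed without sh1 replicate 2 (log2 −0.52, edgeR adjusted p = 1.80e-04), as did LRRC8C (log2 0.57, edgeR adjusted p = 0.00767).

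**Figure D3:**
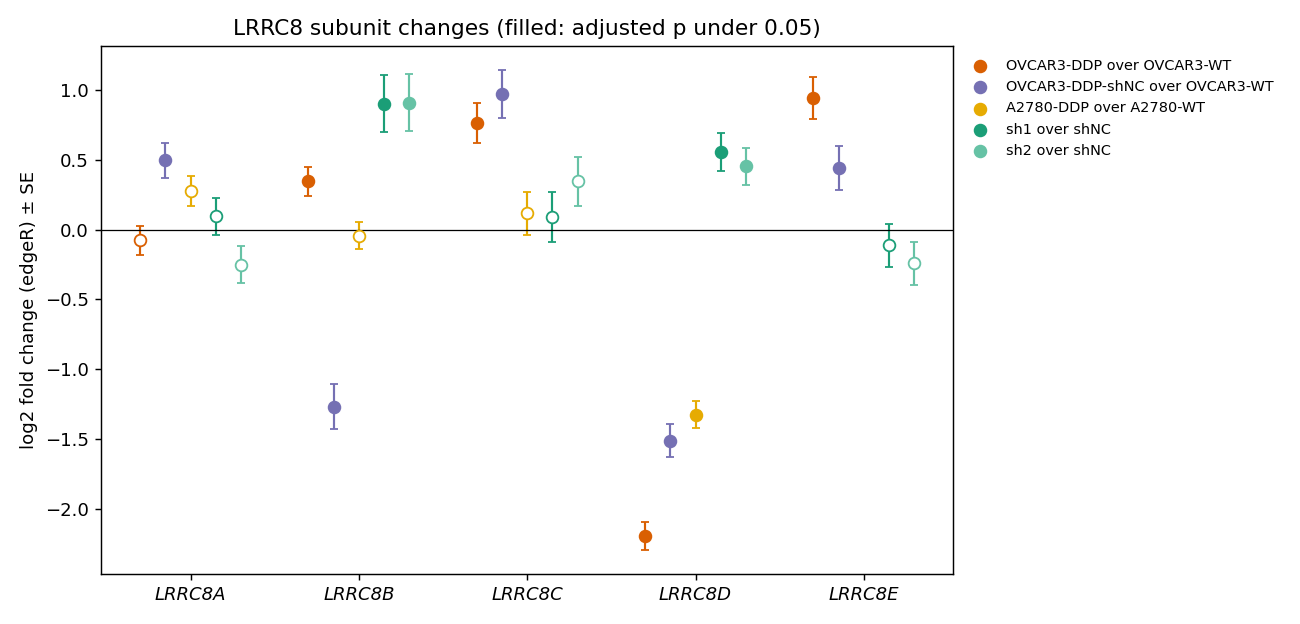
Log2 fold change (edgeR) with its SE for each subunit in 5 comparisons; filled points passed at an adjusted p of 0.05. LRRC8E is left out for A2780, where it had 8 counts in 4 libraries. LRRC8D is below 0 in all 3 comparisons of resistant with parental cells and above 0 with both hairpins, while LRRC8B is above 0 in OVCAR3-DDP and below 0 in shNC.

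Of the genes that fell by at least 2-fold in both resistant lines, 486 were also tested with the hairpins. Of these, 60 (12.3%) were higher in the mean of sh1 and sh2, where 5.94% of all genes tested were, and LRRC8D is among the 60. The list was drawn from these data through libraries labelled OVCAR3-DDP. How many of the 486 were lower in that mean was not counted. The 12.3% is therefore no evidence of a reversal and no result about LRRC8D. OVCAR3-WT serves in 1 comparison and shNC in the other, so no control sample is shared.

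Between the parental lines the make-up of the family differed in 2 subunits above all. LRRC8E had 1420 counts in OVCAR3-WT and 6 in A2780-WT, a ratio per assigned count of 178 with a 95% counting interval of 81.6 to 486. LRRC8B was lower in OVCAR3-WT, at 12.2 and 12.2 CPM, against 50.3 and 47.4 CPM in A2780-WT (log2 −1.95, SE 0.10; edgeR adjusted p = 1.90e-09). LRRC8A was higher in OVCAR3-WT by log2 0.56 (SE 0.10; edgeR adjusted p = 3.37e-04), LRRC8C by 0.46 (SE 0.15; edgeR adjusted p = 0.0141) and LRRC8D by 0.26 (SE 0.09; edgeR adjusted p = 0.0264). All 4 subunits counted in both lines passed, where 66% of genes did (32.3% higher and 33.7% lower); LRRC8D lost its call without OVCAR3-WT replicate 1 or A2780-WT replicate 1 or 2 (edgeR adjusted p = 0.0626, 0.170 and 0.130), and LRRC8C without A2780-WT replicate 1 (0.115).

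Levels of different subunits can be compared per length of exon, as CPM per kilobase of exon. On this scale LRRC8D and LRRC8A made up most of the family in parental cells, and LRRC8D gave way in resistant cells. LRRC8D was 15.6 ± 0.95% of the summed family level in libraries labelled OVCAR3-DDP and 20.4 ± 1.31% in shNC, against 49.8 ± 1.81% in OVCAR3-WT (SD, n = 2 each). It was 27.5 ± 2.47% in A2780-DDP, against 51.6 ± 1.02% in A2780-WT. With the hairpins it was 26.4 ± 4.78% for sh1 and 28.4 ± 3.27% for sh2. LRRC8D was the highest subunit in both parental groups and LRRC8A in the 5 resistant groups, an order that held with the longest coding transcript or the coding sequence as the length and without any single library.

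The other subunits filled the family differently in the 2 lines. LRRC8B was 21.3 ± 0.182% in A2780-DDP and 16.5 ± 0.934% in A2780-WT, but 1.67% to 6.26% in the OVCAR3 groups. LRRC8E was 24.7 ± 0.304% in libraries labelled OVCAR3-DDP and 14.2 ± 1.12% in shNC, against 8.98 ± 0.541% in OVCAR3-WT, and 0.0254% in A2780-DDP and 0.0609% in A2780-WT. LRRC8C was 1.70% to 5.62% in all groups. These shares depend on the length used: by coding sequence LRRC8C was 3.65% to 12.3%, and LRRC8B was 9.58% in libraries labelled OVCAR3-DDP and 2.61% in shNC, against 5.62% in OVCAR3-WT. The family sum was 34.1 ± 0.638 in libraries labelled OVCAR3-DDP and 32.4 ± 1.22 in shNC, against 43.2 ± 0.959 in OVCAR3-WT, and 26.8 ± 1.21 in A2780-DDP, against 36.0 ± 0.518 in A2780-WT, all in CPM per kilobase.

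**Figure D4:**
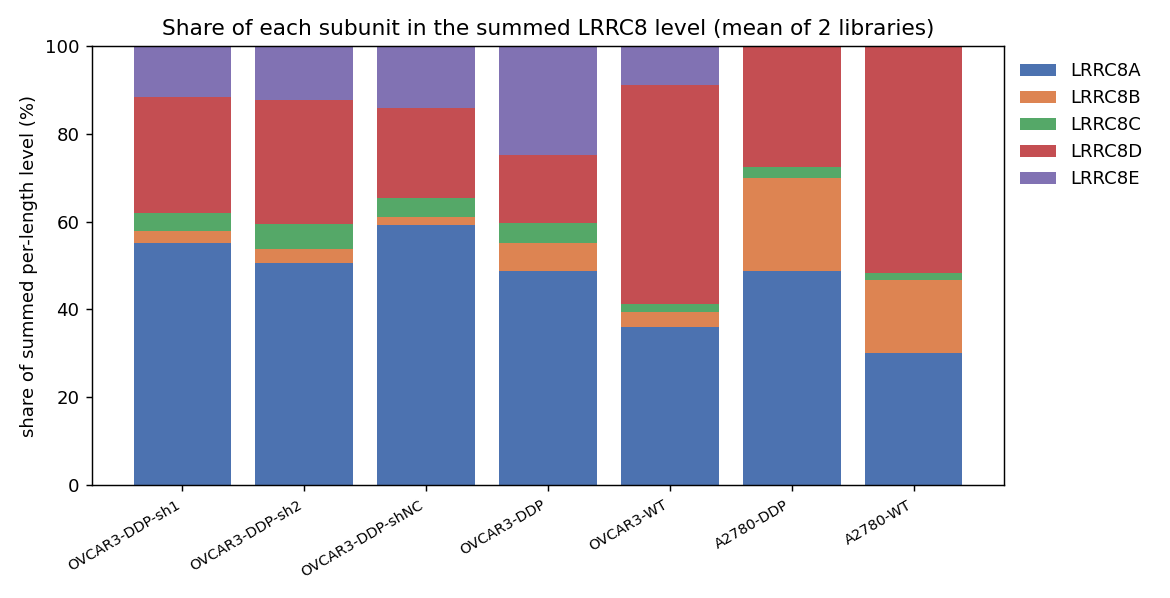
Share of each subunit in the summed per-length level of the family (y axis, %), mean of the 2 libraries in each of the 7 groups. LRRC8D takes 49.8% and 51.6% in the parental groups and 15.6% to 28.4% in the resistant groups, and LRRC8E has a visible share in OVCAR3 groups.

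The ratio of LRRC8D to LRRC8A within a library does not depend on how libraries are scaled. Its log2 was −1.74 and −1.56 in libraries labelled OVCAR3-DDP and −1.62 and −1.46 in shNC, against 0.58 and 0.37 in OVCAR3-WT. It was −0.69 and −0.97 in A2780-DDP, against 0.86 and 0.69 in A2780-WT. The parental libraries had more LRRC8D than LRRC8A per length and every resistant library had less. With sh1 it was −1.38 and −0.76 and with sh2 −0.65 and −1.02, all 4 above the 2 shNC values. With 2 libraries a group, an exact permutation test cannot give a two-sided p below 0.333, so none is given.

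**Figure D5:**
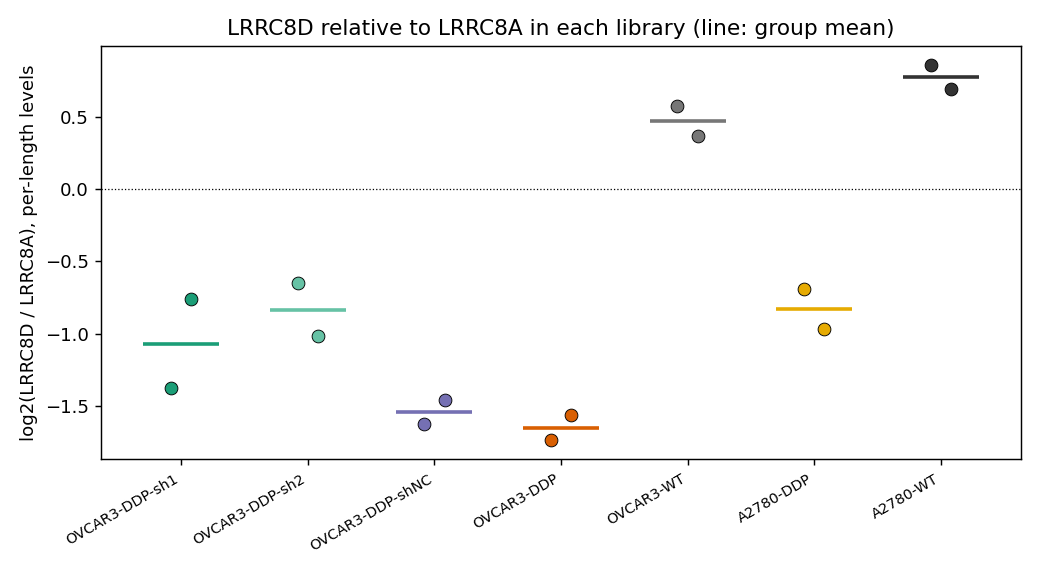
Log2 ratio of LRRC8D to LRRC8A per-length level in each of the 14 libraries (points) with the group mean (line); the dotted line marks equal levels. Both parental groups lie above the dotted line and all 10 resistant libraries below it, with sh1 and sh2 above shNC.

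The neighbours on chromosome 1 followed LRRC8D in part. ZNF326, a zinc-finger gene next to LRRC8D, was lower in libraries labelled OVCAR3-DDP by log2 −0.59 (edgeR adjusted p = 0.00118) and in shNC by −0.37 (edgeR adjusted p = 0.0258) over OVCAR3-WT. It did not pass in A2780-DDP (log2 0.12, edgeR adjusted p = 0.518) and was higher in the mean of the hairpins by 0.38 (edgeR adjusted p = 0.0434). LRRC8C, between LRRC8B and LRRC8D, rose in resistant OVCAR3 cells while LRRC8D fell, as given above. LRRC8B was lower in shNC and higher with both hairpins, as LRRC8D was. Unlike LRRC8D, it was higher in libraries labelled OVCAR3-DDP and did not pass in A2780-DDP. GBP5, an interferon-induced GTPase, lies on the other side of LRRC8B with GBP6 between them. It was higher in the mean of the hairpins by log2 1.25 (edgeR adjusted p = 0.00627), at levels of 1.22 to 4.71 CPM in these 6 libraries. Values of GBP6 are not given here.

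Among 11448 protein-coding genes with a mean of at least 5 CPM, those whose log2(CPM + 1) was most like LRRC8D over the 14 libraries were TRAK2 (Pearson r = 0.98), SLC1A4 (0.97) and TARS1 (0.95). SLC1A4 is a neutral amino acid transporter, TARS1 charges threonine to its transfer RNA and TRAK2 links mitochondria to motor proteins. SLC1A4 had 35.2 and 32.6 CPM in libraries labelled OVCAR3-DDP, against 111 and 126 CPM in OVCAR3-WT, and 46.1 and 50.1 CPM in A2780-DDP, against 139 and 135 CPM in A2780-WT. With hairpins it had 69.4 and 71.4 CPM for sh1 and 62.0 and 55.4 CPM for sh2, against 40.2 and 37.2 CPM in shNC. The genes most like the other subunits were SEMA7A, STIM1 and KCNJ12 for LRRC8A (0.93 to 0.96), AKTIP, MARS1 and CCDC59 for LRRC8B (0.99), MORF4L2, DIS3 and RNF169 for LRRC8C (0.97), and MAP3K21, CYBA and MTLN for LRRC8E (0.997 for MAP3K21). LRRC8E had 0 to 4 counts in each A2780 library, and its like genes had 0, 0.128 and 0 CPM at their lowest. The libraries of a line share their origin and of a group their treatment, so these r describe the 14 libraries and carry no p.

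Between the subunits, LRRC8B ran against LRRC8A (r = −0.86) and LRRC8E (−0.84) over the 14 libraries, and LRRC8A, LRRC8C and LRRC8E ran together (0.740 to 0.815). LRRC8D stood apart, with r from −0.495 to 0.223 against the other 4. The 14 points share 2 lines and 7 groups, and LRRC8E was near 0 in all A2780 libraries.

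The lists below are read against the share of all genes that passed, 68.5% in libraries labelled OVCAR3-DDP, 51.5% in shNC over OVCAR3-WT, 35.3% in A2780-DDP and 11.9% in the hairpin mean. Of 13 genes of platinum uptake and export other than LRRC8, 5 were higher and 5 lower of 11 tested in libraries labelled OVCAR3-DDP, 4 and 4 of 12 in shNC over OVCAR3-WT, and 4 and 2 of 11 in A2780-DDP. SLC31A1, the copper importer that also takes up cisplatin, had 76.2 and 84.9 CPM in A2780-DDP, against 241 and 225 CPM in A2780-WT (log2 −1.52, SE 0.10; edgeR adjusted p = 6.09e-08). In OVCAR3 it went the other way, with 112 and 106 CPM in libraries labelled OVCAR3-DDP, against 52.7 and 59.7 CPM in OVCAR3-WT (log2 0.78, SE 0.10; edgeR adjusted p = 7.74e-06). In shNC it had 72.6 and 79.7 CPM, higher than OVCAR3-WT by log2 0.63 (SE 0.11; edgeR adjusted p = 3.17e-05). With the hairpin mean 0 of 11 genes of the list passed by edgeR's test (2 at an unadjusted p under 0.05).

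Of 24 other chloride and anion channels, 9 were higher and 8 lower of 22 tested in libraries labelled OVCAR3-DDP, 5 and 8 of 24 in shNC over OVCAR3-WT, and 6 and 6 of 22 in A2780-DDP, with medians of log2 −0.01, −0.33 and 0.04. ANO6, a calcium-activated scramblase and channel, was lower in A2780-DDP by log2 −0.97 (SE 0.14; edgeR adjusted p = 1.02e-04) and higher in shNC by 0.95 (SE 0.12; edgeR adjusted p = 6.87e-07). The median over all genes tested was −0.03, 0 and 0 in the 3 comparisons. With the hairpin mean 1 was higher and 2 lower of 20, and over all genes 68.5%, 51.5% and 35.3% passed in the 3 comparisons and 11.9% in the mean.

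Of 14 volume-sensing kinases and cation-chloride cotransporters, 5 were higher and 5 lower of 12 tested in libraries labelled OVCAR3-DDP, 1 and 2 of 13 in shNC over OVCAR3-WT, and 5 and 3 of 12 in A2780-DDP, where 68.5%, 51.5% and 35.3% of all genes passed. SLC12A2, the cotransporter that brings chloride into cells, was lower by log2 −0.88 (SE 0.10; edgeR adjusted p = 3.88e-06) and −0.99 (SE 0.12; edgeR adjusted p = 2.72e-07) in libraries labelled OVCAR3-DDP and in shNC. None of the 11 tested passed in the hairpin mean by edgeR's test (3 at an unadjusted p under 0.05).

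Of 6 genes of organic osmolyte transport and the hypertonic response, 2 were higher and 2 lower in libraries labelled OVCAR3-DDP, 4 and 1 in shNC over OVCAR3-WT, and 0 and 1 in A2780-DDP, against the same shares of all genes (68.5%, 51.5% and 35.3%). SLC5A3, which imports the osmolyte myo-inositol, had 40.6 and 36.5 CPM in libraries labelled OVCAR3-DDP and 64.5 and 62.2 CPM in shNC, against at most 18.34 CPM in OVCAR3-WT. SLC6A6, the taurine importer, was lower in the mean of the hairpins by log2 −0.49 (SE 0.09; edgeR adjusted p = 0.00321). HSPA4L, a heat-shock protein of the hypertonic response, had 71.5 and 94.5 CPM with sh1 and 80.6 and 67.9 CPM with sh2, against 41.9 and 39.3 CPM in shNC (log2 0.86 for the mean, SE 0.13; edgeR adjusted p = 4.59e-04).

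Of 9 genes of cyclic dinucleotide import, export and sensing, 2 were higher and 3 lower of 8 tested in libraries labelled OVCAR3-DDP, 0 and 4 in shNC over OVCAR3-WT, and 3 and 2 in A2780-DDP, beside 68.5%, 51.5% and 35.3% of all genes. STING1, the receptor, had 9.93 and 10.4 CPM in libraries labelled OVCAR3-DDP and 36.3 and 36.4 CPM in shNC, against 76.9 and 76.8 CPM in OVCAR3-WT, and at most 0.0611 CPM in A2780. In the hairpin mean 1 of the 8 was higher and 1 lower, beside 11.9% of all genes. The higher one was CGAS, which makes the dinucleotide. It had 23.8 and 35.5 CPM with sh1 and 35.8 and 32.4 CPM with sh2, against 15.57 and 14.01 CPM in shNC (log2 1.01 for the mean, SE 0.15; edgeR adjusted p = 5.41e-04). LRRC8C and LRRC8E, the partners that pass this molecule, did not pass in the same comparison (log2 0.22 and −0.18; edgeR adjusted p = 0.391 and 0.423).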

How the data were processed

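The deposited values were HTSeq counts per gene, 1 file per library, 62757 genes and 5 summary lines. Reads that the counting assigned to no gene were 48.7% to 50.0%. With the strand setting unknown, these may include reads that lie on a gene. Per the submitters' processing notes, the authors used FastQC 0.11.9, STAR 2.7.8a, GRCh38.p13, SAMtools and HTSeq 2.0.3. Per the labels' protocols, total RNA was isolated with Trizol. The sources used here do not give the annotation release, strand setting or layout of the reads.

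The test was the quasi-likelihood F-test of edgeR (edgeR 4.0.16, limma 3.58.1, R 4.3.3), TMM scaling, the filterByExpr filter (minimum count 10), and adjusted p (Benjamini-Hochberg, over every gene tested, threshold 0.05), with 1 mean per group. The 8 libraries without a hairpin and the 6 with one were fitted apart (23031 and 19044 genes tested), and shNC was compared with groups without a hairpin in a fit of all 14 (24193 genes). Every subunit passed the filter in each fit, LRRC8E in the fit of 8 through its OVCAR3 libraries. The SE is approximate, from the fold change and F. Per-length levels divide CPM by exon union length in GENCODE 29, which held 58318 of the genes. The self-test used simulated counts. Named genes follow a rule: all 5 subunits, ADAR, up to 4 genes per list and comparison, 2 neighbours on each side and 3 genes of like pattern. Only some of these are printed, and KRT7 and CD44 were named after their values were seen. The members and lists were chosen with earlier results of these data known. Alternatives were DESeq2 size factors and Wald test (DESeq2 1.42.0), upper-quartile scaling, limma-voom, other filters, other fits, the replicate number as a block and each library left out in turn; those that leave out or replace the libraries labelled OVCAR3-DDP, and the antisense sum, were chosen after seeing the data. Intervals and floors cover counting error only. Plots used Python 3.11.15 with pandas 2.3.3, numpy 2.4.6 and matplotlib 3.10.9.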

Additional observations from a re-analysis of the deposited data

Results flagged for a closer look

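The change with resistance differed between OVCAR3 and A2780 in 3 of the 4 subunits counted in both lines by the interaction contrast (OVCAR3 change minus A2780 change, edgeR). The difference was −0.87 for LRRC8D (adjusted p = 1.22e-04), 0.39 for LRRC8B (adjusted p = 0.0324) and 0.65 for LRRC8C (adjusted p = 0.0179), all on the log2 scale. LRRC8A differed by −0.35 and did not pass (adjusted p = 0.0585). With shNC in place of the libraries labelled OVCAR3-DDP, LRRC8C passed at 0.83 (adjusted p = 0.00894), LRRC8B passed with the other sign at −1.25 (adjusted p = 2.43e-05), and LRRC8D at −0.21 (adjusted p = 0.324) and LRRC8E at 1.94 (adjusted p = 0.131) did not pass. LRRC8B lost its call in 8 of 18 alternatives, with no low-count filter (adjusted p = 0.0643), with all 14 libraries (0.0551) and without OVCAR3-WT replicate 2 (0.0612), OVCAR3-DDP replicate 1 or 2 (0.121 and 0.0684), A2780-WT replicate 1 or 2 (0.0975 and 0.0621) or A2780-DDP replicate 1 (0.0568). LRRC8C lost its call without OVCAR3-DDP replicate 2 (0.101) or A2780-WT replicate 2 (0.0646). The LRRC8E contrast, 2.49 (adjusted p = 0.0464), is no usable call. It rests on 8 counts in the 4 A2780 libraries, ran from 1.58 to 5.83 without 1 library and lost the threshold in 8 of 18 alternatives.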

How the results depend on the processing

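Over 729 alternatives for the 5 subunits in the 10 comparisons, 654 kept direction and side of the threshold, 40 lost a call, 17 gained one and 18 changed sign; the cause was not tested. LRRC8D against parental cells kept its direction and call in all of these, at −2.28 to −2.06 in OVCAR3-DDP, −1.35 to −1.21 in A2780-DDP and −1.56 to −1.43 in shNC. In A2780 the number of subunits called was 2 in place of 1 with the filter off or set at 5 CPM, with DESeq2's size factors or Wald test, with upper-quartile scaling, the replicate block and the antisense sum (through LRRC8E, on 3 to 15 counts a library). It was 4 in place of 2 for sh2 over shNC with these groups alone in the fit, and 2 in place of 4 (LRRC8E included) for the line difference with shNC in place of OVCAR3-DDP. Leaving out 1 library gave 3 to 4 for OVCAR3-DDP, 1 to 2 for A2780-DDP, 1 to 5 for the line difference, 3 to 5 between parental lines, 0 to 2 for sh1, 0 to 1 for sh2, 0 to 4 for their mean, 0 to 2 for sh2 over sh1, and 4 to 5 for shNC over OVCAR3-WT. Same-numbered libraries did not deviate together (correlations −0.0745 to 0.142), so the numbers were not used as pairs; with the replicate block LRRC8A passed in A2780 (0.28, adjusted p = 0.0384) and in the line difference (−0.35, adjusted p = 0.0440), and LRRC8E lost its call there (2.49, adjusted p = 0.0530).

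The sign changed for LRRC8A in OVCAR3-DDP (0.0531 by upper quartile, 0.0348 at 5 CPM, 0.000401 with 14 libraries, 0.00458 with the pair alone), for LRRC8A and LRRC8B in the line difference with shNC (0.196 and −1.25) and for LRRC8B in sh2 over sh1 by upper quartile (−0.000532). Without 1 library, ranges that crossed 0 were −0.145 to 0.00131 for LRRC8A in OVCAR3-DDP, −0.0326 to 0.0300 for LRRC8B in A2780-DDP, −0.127 to 0.269 for LRRC8A and −0.227 to 0.333 for LRRC8C with sh1, −0.191 to 0.00983 for LRRC8A in the mean, −0.136 to 0.178 for LRRC8B and −0.208 to 0.0181 for LRRC8D in sh2 over sh1, and −0.0200 to 0.266 for LRRC8C in shNC over OVCAR3-DDP. None of these passed in the reported fit except LRRC8B in the line difference. Upper-quartile scaling moved the median of all genes by 0.101 in OVCAR3 and 0.107 in the line difference.

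Counts over all genes moved by more than 1.5 times at 5 CPM, to 10267 from 15784 genes for OVCAR3-DDP over OVCAR3-WT, 9989 from 15203 between parental lines and 10343 from 16860 for shNC over OVCAR3-DDP. With the compared groups alone they were 445 in place of 725 for sh1, 5874 in place of 2717 for sh2 and 192 in place of 365 for sh2 over sh1. The last was 690 with no filter and 642 by DESeq2. Without 1 library they were 89 to 4512 for sh1, 303 to 1386 for sh2, 327 to 6318 for the mean (2270 with all libraries) and 58 to 4286 for sh2 over sh1. Depth limits LRRC8E in A2780, at 0 to 4 counts a library.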
